A study of Mus musculus with 5 samples.

Results

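Fat cell marker genes were read in mouse heart RNA. They were the 7 genes Adipoq, Cfd, Retn, Plin1, Cidec, Cidea and Car3, taken by symbol from a table of 17228 genes as a sign of fat on or in the heart. Messenger RNA was enriched with oligo(dT) beads from hearts dissected at 6 months of age, and 5 libraries were sequenced in a study of diabetic heart disease. The WT group held 1 female and 1 male, labelled non-diabetic. The db/db group held 2 females and 1 male, labelled diabetic, with the genotype KsJ-Lepr db/Lepr db, that is, homozygous for the db allele of the leptin receptor gene Lepr. The allele is present in every cell of the animal, so the heart was not the only tissue changed. All samples were labelled strain C57BL, KsJ was named only in the db/db genotype, and all mice ate a standard diet. The growth protocol describes male mice, whereas 3 samples were labelled female. Nothing in the labels says whether the 5 libraries stand for 5 animals, and p-values therefore measure only the spread between samples.

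A white fat cell stores triglyceride in 1 large lipid droplet and releases hormones into the blood. Its secreted products include adiponectin, adipsin, resistin and leptin, and its droplet is coated with perilipin 1 and with proteins of the CIDE family, which move lipid between droplets. Heart muscle cells burn fatty acids and hold small droplets of their own, coated mainly with other perilipins. In the mouse, fat and the thymus lie close to the base of the heart, and brown fat, which makes heat through the protein encoded by Ucp1, surrounds the large vessels. The db/db mouse lacks leptin signalling and becomes obese.

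The defining fat cell genes were close to absent in every heart. Adipoq, Retn and Plin1 had 0 to 8 counts per library, and the 6 genes other than Cidea together had 201 of 46716526 counts. Cidea was the exception, with 376 to 632 counts in every library, WT and db/db alike. Only 2 of the 7 genes, Cidea and Car3, had counts enough to be tested in db/db against WT. Of these 2, 0 were called, where 1.03% of all 12540 tested genes were called (edgeR quasi-likelihood test, adjusted p under 0.05). DESeq2 and limma-voom called 0 of them too, and 1 had an unadjusted p under 0.05. By edgeR, 1623 of all 12540 tested genes had an unadjusted p under 0.05. That is the background for the same count in each gene list below. With no filter on low counts, which let all 7 be tested, 0 were called and 3 had an unadjusted p under 0.05. Of the 16379 genes in that fit, 1.56% were called and 1918 had an unadjusted p under 0.05. Cidea was higher in each db/db library than in each WT library, with a db/db mean of 66.6 ± 16.6 CPM (SD, n = 3) and a WT mean of 42.8 ± 8.7 CPM (SD, n = 2), and was called in 3 of 19 alternative analyses, each of which took sex into account. Fewer fat cells and less of a transcript per cell cannot be told apart in such bulk RNA.

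The libraries held 8356090 to 10381329 counts, with 14670 to 15127 genes detected. At this depth a count of 0 allows up to 3 counts, or 0.292 to 0.405 CPM (counts relative to the TMM-scaled library size), which covers counting error only. Of the 7 genes, 2 (Cidea and Car3) passed the filter on low counts and were tested, and 5 did not pass. Libraries stood apart in 2 ways that touch these genes. In the WT female, 7 of 8 thymus markers had more than 3 counts, against 1 of 8 in each other library, and their summed level was 6.07 TPM (a level scaled to gene length and library size) against 0.41 to 0.64 TPM. Short genes also read low in the WT female and high in the db/db male. In the second of 10 length classes, which holds Cidea with an implied transcript length of 1078 bases, the median deviation from the mean over libraries was -0.15 and 0.11 on the log2 scale, and within 0.05 of 0 in the other libraries.

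**Figure D1:**
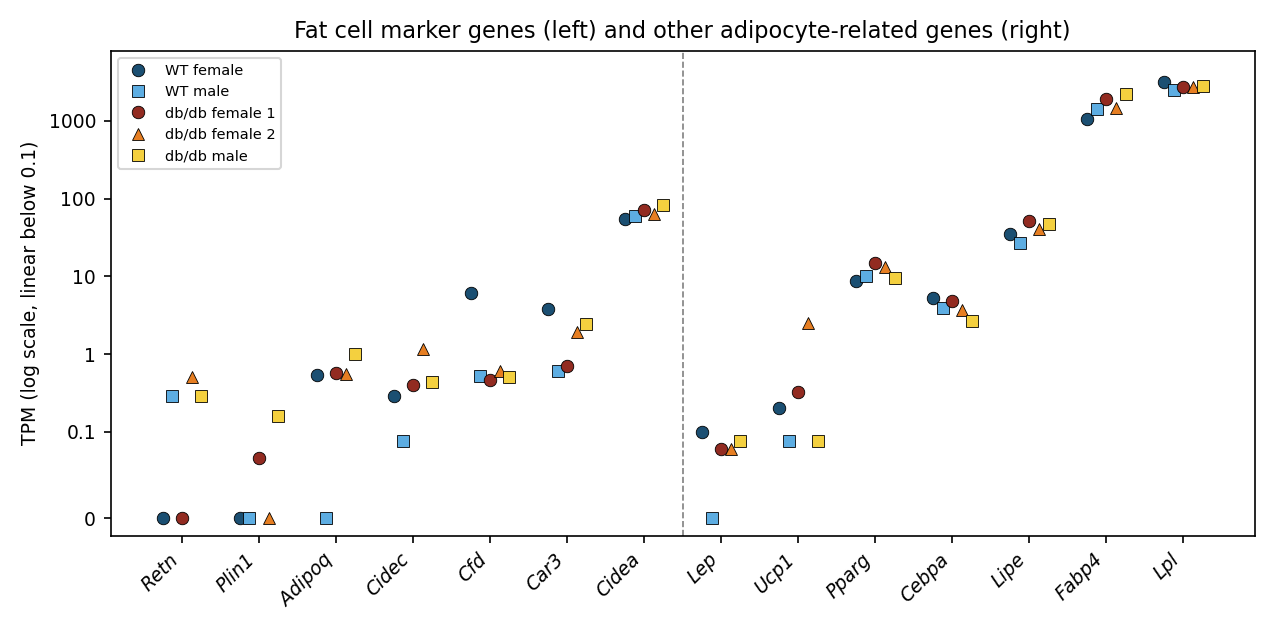
Level in TPM (log axis, linear below 0.1) of the 7 fat cell marker genes, left of the dashed line, and of 7 other genes of fat cells, right of it; each symbol is 1 library. Retn, Plin1, Adipoq and Lep lie at or below 0.99 TPM in every library, whereas Cidea lies between 54.08 and 83.24 TPM.

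The secreted products come first. Adipoq encodes adiponectin, the hormone made almost only by fat cells, and lies at chr16:23146536-23158500 (GRCm38.p6). It had 4 counts in the WT female, 0 in the WT male, 5 in each db/db female and 8 in the db/db male. The db/db male was highest, the WT male lowest, and in CPM the groups did not overlap. Across all libraries 4 counts stood against 18, a ratio of db/db to WT of 3.19 (95% counting interval 1.05 to 13.0). Without the WT male the ratio was 1.69 (0.556 to 6.85), and without the WT female 0 counts stood against 18. With no low-count filter the edgeR estimate was 1.67 on the log2 scale (SE 1.02, adjusted p = 0.557), and an exact two-sided permutation test of the CPM values gave p = 0.2. Groups of 2 and 3 have 10 splits, so this test cannot go below 0.1. All db/db libraries lay above all WT libraries for 15.1% of the tested genes. In TPM, Adipoq ran from 0 to 0.99.

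Cfd encodes adipsin (complement factor D), a serine protease that fat cells secrete and that cleaves factor B in the alternative complement pathway. It lies at chr10:79890853-79892660. It had 33 counts in the WT female (95% counting interval 22.7 to 46.3), 3 in the WT male, 3 and 4 in the db/db females and 3 in the db/db male. A single library was thus high and the other libraries were level, with the WT male inside the db/db range of counts. The WT female stood 9.04-fold (4.63 to 18.7) above the rest by counts. The ratio of db/db to WT was 0.197 (0.0872 to 0.405) over all libraries, 0.114 (0.0499 to 0.236) without the WT male and 1.12 (0.287 to 6.31) without the WT female. Cfd was called in females alone (log2 fold change -3.15, edgeR adjusted p = 0.000873), where the WT arm was this 1 library, and 7.67% of genes were called. The thymus markers were high in the same library: Rag1, an enzyme of antigen receptor rearrangement, had 18 counts there and 0 in each of the other libraries, and Lck, a T cell kinase, had 29 against 1 to 3. Their part in the Cfd result was not tested.

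Retn, which encodes resistin, a hormone that in mice comes from fat cells (chr8:3655770-3659818), had 0 counts in the WT female, 1 in the WT male, 0 and 2 in the db/db females and 1 in the db/db male. The groups overlapped, and 4 counts in all cannot show a difference: the ratio of 2.13 had a counting interval of 0.171 to 112. Lep, the leptin gene, had 2, 0, 2, 2 and 2 counts in the same order of libraries.

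The regions before the start sites of the adiponectin and adipsin genes are shown because these 2 secreted products had most counts in different libraries. These were the WT female for Cfd and the db/db male for Adipoq, where the counting interval overlapped those of other libraries. The sequences are the 250 bases upstream of the RefSeq start, on the plus strand of GRCm38.p6, at chr16:23146286-23146535 for Adipoq and chr10:79890603-79890852 for Cfd. Capitals mark matches on either strand to CCAAT, a common promoter element.

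Adipoq: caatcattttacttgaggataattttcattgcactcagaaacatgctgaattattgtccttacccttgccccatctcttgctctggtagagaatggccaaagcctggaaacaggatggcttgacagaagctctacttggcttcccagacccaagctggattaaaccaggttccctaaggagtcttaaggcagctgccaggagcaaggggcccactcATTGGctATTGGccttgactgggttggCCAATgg

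Cfd: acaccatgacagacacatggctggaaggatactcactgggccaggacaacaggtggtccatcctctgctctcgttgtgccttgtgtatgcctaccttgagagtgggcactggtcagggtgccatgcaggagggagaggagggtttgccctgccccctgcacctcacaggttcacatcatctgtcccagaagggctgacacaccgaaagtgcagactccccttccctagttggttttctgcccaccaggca

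Adipoq held 3 such matches, with first bases 34, 27 and 7 bases before the start. At least 1 match to CCAAT was found in 33.8% of 32851 promoter windows of this length. Cfd held none, and neither window held AGGTCA (a nuclear receptor core motif, in 14% of windows), TTNNGNAAT (a C/EBP-like pattern, in 10.2%) or TATAAA (12.4%); the motifs do not overlap in letters. Of the 7 genes, 5 had an entry in the RefSeq promoter table. The windows of Plin1 and of a second start of Cidec held TTNNGNAAT matches. These matches describe letters in the window and say nothing of binding.

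The lipid droplet proteins split into rare and abundant genes. Plin1 encodes perilipin 1, which coats the fat cell droplet and guards it from lipases, and lies at chr7:79721164-79732903. It had 0 counts in both WT libraries, 1 and 0 in the db/db females and 2 in the db/db male. Both groups were at or under 3 counts in every library, so no fold is given, and Plin1 was not detectably different at this depth.

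Cidec encodes the CIDE protein that fuses droplets in white fat cells. The table places it at chr6:113424634-113437636 on the plus strand, whereas RefSeq has it on the minus strand with an end at 113435760, so its counts are the less certain. It had 3 counts in the WT female, 1 in the WT male, 5 and 15 in the db/db females and 5 in the db/db male. Db/db female 2 was highest and the groups did not overlap. All db/db libraries lay above all WT libraries for 15.1% of the tested genes, among which Cidec was not. The ratio of db/db to WT was 4.44 (1.53 to 17.5) over all libraries and 2.82 (0.815 to 12.3) without db/db female 2. It was 8.37 (1.37 to 344) without the WT female. The edgeR estimate with no low-count filter was 2.06 on the log2 scale (SE 0.91, adjusted p = 0.357). Ucp1, the brown fat gene, was also highest in db/db female 2, with 31 counts against 1 to 4 in the other libraries, a ratio to them of 13.9 (6.27 to 35.1). Other listed brown fat genes were mixed. Otop1 (2 counts) and Zic1 (1 count) were counted there alone, and Dio2 had 25 counts there against 6 to 22. Elovl3 had 0 counts there and 4 in db/db female 1, and Prdm16 had 105 there against 98 to 196. The part of brown fat in the Cidec result was not tested.

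**Figure D2:**
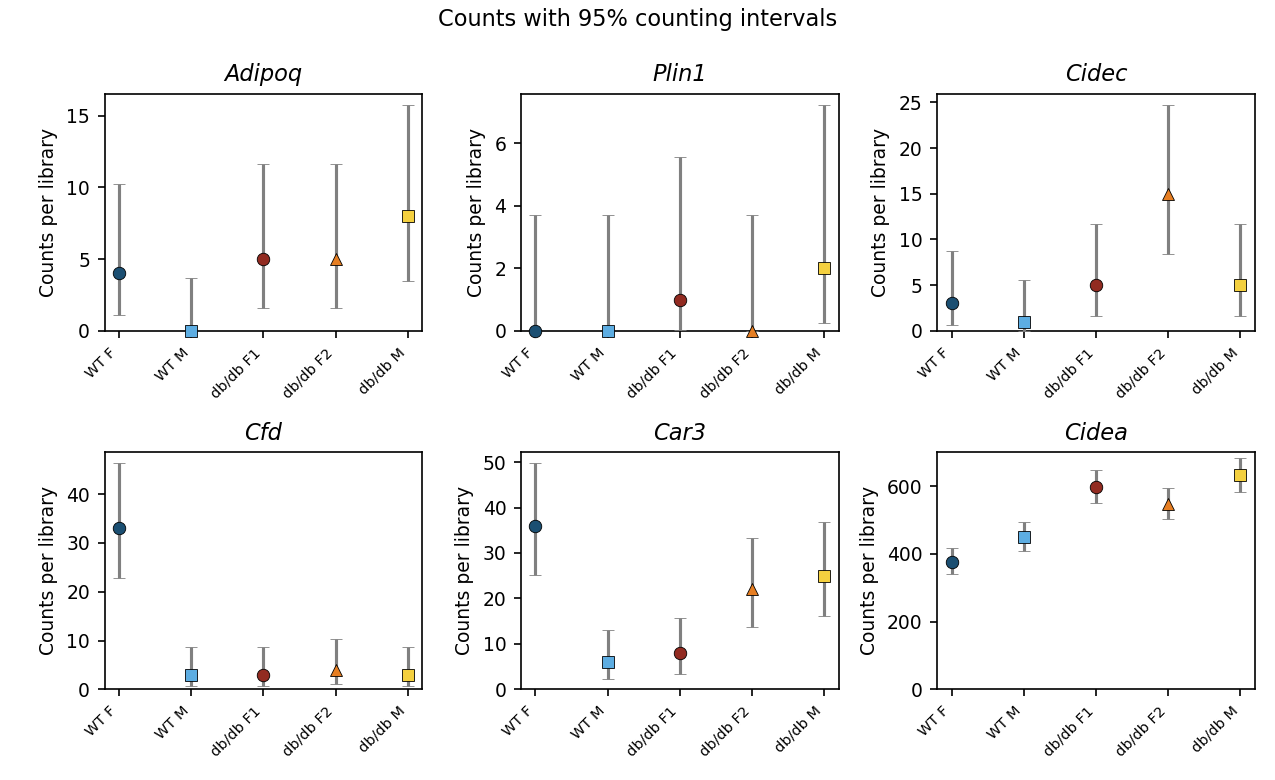
Counts per library (linear axes) of 6 of the 7 genes with exact 95% Poisson counting intervals. Cfd is high in the WT female alone (33 counts against 3 or 4), Cidec is highest in db/db female 2 (15 counts), and Cidea has 376 to 632 counts.

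Cidea encodes another CIDE protein, which enlarges lipid droplets and in mice is best known from brown fat (chr18:67342454-67367794). It had 376 counts in the WT female, 449 in the WT male, 597 and 547 in the db/db females and 632 in the db/db male. In TPM these were 54.08 and 60.61 in WT and 71.76, 63.5 and 83.24 in db/db, which placed it between ranks 1094 and 1902 of 17228 genes. Cidea made up 83.4% to 97.6% of the summed TPM of the 7 genes. Its level stood far above that of the genes that define fat cells: Ucp1 was at 0.09 to 2.49 TPM and Plin1 at 0 to 0.16 TPM in the same libraries.

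In CPM, Cidea was at 36.6 in the WT female, 48.9 in the WT male, 60.9 and 53.7 in the db/db females and 85.3 in the db/db male. The db/db male was highest and the WT female lowest, within each sex db/db exceeded WT, and the groups did not overlap, as in 31.6% of tested genes in either direction. By edgeR, Cidea differed by 0.64 on the log2 scale (SE 0.21, adjusted p = 0.238, unadjusted p = 0.0106), and the exact two-sided permutation p was 0.2. In the authors' deposited table the log2 fold change of Cidea was 0.65 with a q-value of 0.191. With sex as a covariate Cidea was called at 0.71 (SE 0.13, edgeR adjusted p = 0.00566), as were 6.63% of genes, and in females alone at 0.65 (adjusted p = 0.00697), as were 7.67% of genes. Beside these, the length trend moved with the value. Once each library's dependence on gene length was removed by an offset, the log2 fold change was 0.48 (edgeR adjusted p = 0.263), and with the offset and sex together, chosen after seeing the data, it was 0.53 (adjusted p = 0.0365; 3.51% of genes called). Without the WT female, the value was 0.44 (adjusted p = 0.952), and without the db/db male 0.42 (adjusted p = 0.238).

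Car3 encodes carbonic anhydrase 3, an enzyme abundant in fat cells and in slow skeletal muscle (chr3:14863509-14872381). It had 36 counts in the WT female, 6 in the WT male, 8 and 22 in the db/db females and 25 in the db/db male. The highest and the lowest library were both WT, so the groups overlapped fully. The WT mean was 2.08 ± 2.01 CPM (SD, n = 2), and that of db/db was 2.12 ± 1.28 CPM (SD, n = 3). The difference of -0.03 on the log2 scale (SE 0.67, edgeR adjusted p = 0.990) was not called, and the exact permutation p was 0.9. Its ratio of db/db to WT depended on which WT library was kept: it was 3.07 (95% counting interval 1.32 to 8.72) without the WT female, 0.573 (0.370 to 0.898) without the WT male and 1.24 (0.798 to 1.92) without db/db female 1. Skeletal muscle markers summed to 48.14 and 47.96 TPM in WT and to 35.38, 29.7 and 55.82 TPM in db/db. Their part in the Car3 values was not tested.

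**Figure D3:**
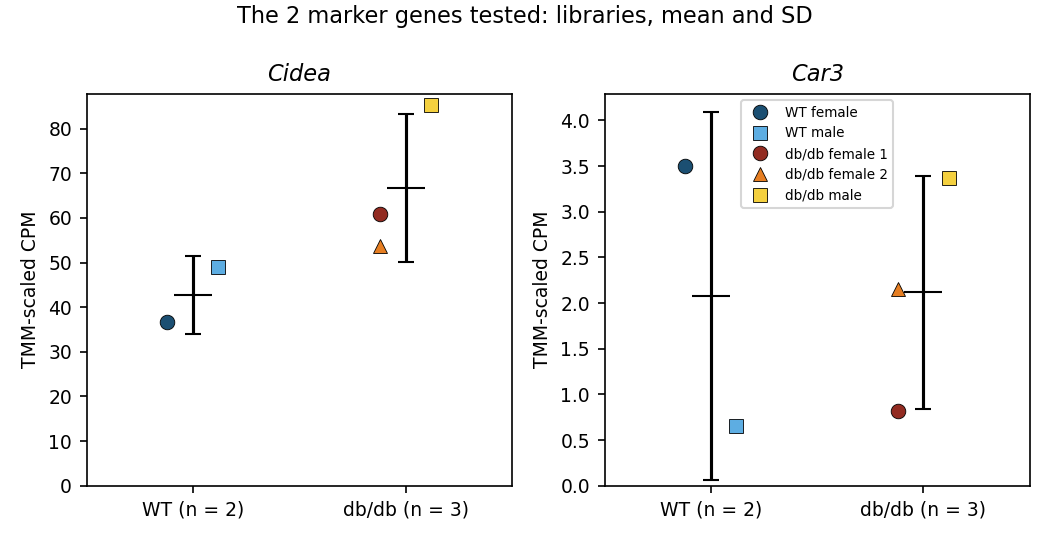
CPM (linear axes from 0) of the 2 tested genes by genotype; symbols are libraries, the horizontal bar is the mean and the whisker the SD. The Cidea groups do not overlap (36.6 and 48.9 against 53.7 to 85.3), whereas the WT libraries span the whole range of Car3.

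In per-length levels the order over all libraries was Cidea (mean 66.6 TPM), Car3 (1.90), Cfd (1.64), Adipoq (0.53), Cidec (0.476), Retn (0.218) and Plin1 (0.046). Only the gap below Cidea exceeded the spread of the genes over libraries; each other neighbour pair overlapped. The summed TPM without Cidea was 10.77 in the WT female, 1.5 in the WT male, 2.21 and 4.72 in the db/db females and 4.84 in the db/db male. The WT female was highest, through Cfd and Car3, and the WT male lowest. Of the 7 genes, 4, 2, 4, 5 and 4 had more than 3 counts in these libraries. The library with most counts differed between the low genes: it was the WT female for Cfd and Car3, db/db female 2 for Cidec and the db/db male for Adipoq. Only for Cfd was its 95% counting interval clear of those of all other libraries. For Adipoq, 8 counts (3.45 to 15.8) overlapped the 5 (1.62 to 11.7) in each db/db female, although the db/db male stood 3.04-fold (1.11 to 7.77) above the rest together. For Car3, 36 counts (25.2 to 49.8) overlapped the 25 (16.2 to 36.9) in the db/db male.

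Males and females were compared in a model with genotype. Of the 2 tested genes, edgeR and limma-voom called 0, DESeq2 called 1, and 1 had an unadjusted p under 0.05. Of all 12540 genes, edgeR called 1.4%, and 1870 had an unadjusted p under 0.05. Cidea was higher in males by 0.51 on the log2 scale (SE 0.13, edgeR adjusted p = 0.0610), with the male above each female of its genotype. DESeq2 called it (adjusted p = 0.0304; 2.45% of genes called), and so did edgeR without the low-count filter (adjusted p = 0.0256; 2.56%). The edgeR difference was 0.57 without the WT female and 0.57 without the WT male. These fits are not separate evidence. In each the genotype term takes up the WT library that remains, so both compare the db/db male with the same db/db females. With the length offset the difference was 0.35 (edgeR adjusted p = 0.308). Car3 differed by -0.16 (SE 0.80, edgeR adjusted p = 0.955).

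The genes whose pattern over the 5 libraries lay nearest to Adipoq were sought by the root mean square distance of centred log2 CPM. The search covered 12147 genes that reached at least 1 TPM in some library, without the 7 marker genes. Slc16a11, a monocarboxylate transporter gene, was nearest at 0.14, with 12 and 3 counts in WT and 12, 13 and 17 in db/db. Next came Gm6445 (0.27), Rsph9 (0.30), the phosphatase gene Ptprf (0.31), the clock genes Per1 (0.32) and Per3 (0.32), Epop (0.32) and Myoz1 (0.34), against a median of 0.87. None of the other listed white fat cell genes was among these 8. Several of them, such as Lep at 0 to 0.1 TPM, were under the level limit and could not appear, so their absence shows nothing. For Car3 the nearest were the lymphocyte phosphatase gene Ptpn22 (0.30), Zfp973 (0.35), Ccdc57 (0.36), the mast cell protease gene Tpsb2 (0.38) and the mesothelial gene Upk3b (0.39), against a median of 0.91. Upk3b had 27 and 8 counts in WT and 12, 37 and 39 in db/db, the same order of libraries within WT as Car3. Apart from Per1 and Per3, these genes had 0 to 69 counts per library.

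Other genes of white fat cells gave a different picture in level. Of 37 listed, 30 were tested, 2 rose and 0 fell, where 0.67% of all genes rose, and the median log2 fold change was 0.32 against -0.01 for all genes. DESeq2 called 4 of them, limma-voom 2, edgeR with sex as a covariate 6, and limma on TPM 0. Of all 12540 genes, DESeq2 called 241, limma-voom 114 and edgeR with sex as a covariate 832. Limma called 108 and 91 of 11668 genes on the log2(TPM + 1) and log2(TPM + 0.1) scales. Gpd1, which makes the glycerol backbone of triglyceride, rose by 1.02 on the log2 scale (SE 0.16, edgeR adjusted p = 0.0119), from 413 and 442 counts to 910, 799 and 722. Lipe, hormone-sensitive lipase, rose by 0.90 (adjusted p = 0.0276), from 595 and 493 counts to 1058, 864 and 892. The Gpd1 call was lost without the WT female (edgeR adjusted p = 0.198) or db/db female 1 (0.0638), and on the log2(TPM + 1) and log2(TPM + 0.1) scales (limma, 0.0776 and 0.0922). The Lipe call was lost without db/db female 1 (0.125), the WT female (0.225) or the WT male (0.189), with library totals (0.0704), with the title number as a block (0.0584), and on both TPM scales (0.164 and 0.192). Fabp4, a fatty acid carrier of fat cells, capillary endothelium and macrophages, was abundant at 1059 to 2232 TPM, and was not called (log2 fold change 0.88, adjusted p = 0.223). Lpl, lipoprotein lipase, was at 2475 to 3159 TPM. Pparg, the master regulator of fat cells, was at 8.83 to 14.82 TPM (log2 fold change 0.64, adjusted p = 0.231), and its partner Cebpa at 2.68 to 5.35 TPM (log2 fold change -0.03, adjusted p = 0.966). The 7 listed genes that did not pass the filter were Lep, Lgals12, Adrb3, Slc7a10 and Acvr1c, at 0 to 2 counts in every library, Rbp4 at 1 to 4 and Pck1 at 2 to 17. Some other genes of the list, not all particular to fat tissue, were clearly counted: Mrap had 111 to 198 counts, Thrsp 271 to 676, Trarg1 24 to 50 and Adig 10 to 34.

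Relatives of Plin1, Cidec and Cidea were read together with other lipid droplet genes, such as Abhd5, Fitm1, Fitm2 and Hilpda. Plin4 was also in the list of white fat cell genes above, so these lists are not separate. All 9 listed were tested, 0 were called by edgeR, 4 had an unadjusted p under 0.05, DESeq2 called 1 and limma-voom 0. With sex as a covariate edgeR called 3, where 6.63% of all genes were called. Their median log2 fold change was 0.32, with 8 of 9 positive. Plin4 had 0.71 (SE 0.15, edgeR adjusted p = 0.0570), from 1270 and 907 counts to 1907, 1698 and 1374. Plin5, the perilipin of oxidative tissues, had 0.51 (adjusted p = 0.137) at 87.49 to 128.7 TPM. Fitm1, a droplet gene of striated muscle, was at 381.5 to 446.1 TPM, and Plin3 at 116.6 to 146.1 TPM. These levels exceeded the 0.16 TPM maximum of Plin1 in every library.

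The partners of the secreted products were not called either in the models of genotype alone. For adiponectin, 0 of 11 tested genes of its receptors and signalling were called (edgeR, DESeq2 and limma-voom), 2 had an unadjusted p under 0.05, and the median log2 fold change was -0.18. With sex as a covariate edgeR called 1 of them, where 6.63% of all genes were called. Adipor1, the receptor with the higher level, was at 62.96 to 120.5 TPM (log2 fold change -0.18, adjusted p = 0.611), and Prkaa2, a catalytic subunit of AMP-activated protein kinase, had -0.62 (adjusted p = 0.124). Of 10 tested genes of the alternative complement pathway, on which adipsin acts, 0 were called by the same 3 tools and 0 had an unadjusted p under 0.05; C3, its central component, was at 47.4 to 67.82 TPM. Of 4 tested resistin family and candidate receptor genes, 0 were called and 1 had an unadjusted p under 0.05: Retnla, a resistin relative made by macrophages, had 25 and 37 counts in WT and 82, 90 and 29 in db/db (log2 fold change 1.15, adjusted p = 0.238). Of 7 tested carbonic anhydrases other than Car3, edgeR called 0, 2 had an unadjusted p under 0.05, and DESeq2 called 1. With sex as a covariate edgeR called 2 of these 7. Car4, a membrane-bound form on capillaries, had 0.87 (SE 0.22, edgeR adjusted p = 0.106), from 294 and 375 counts to 714, 484 and 523.

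Brown fat and fat progenitor lists were read for the same reason. Of 8 tested brown fat genes 0 were called by the 3 tools and 2 had an unadjusted p under 0.05. With sex as a covariate edgeR called 2 of the 8, where 6.63% of all genes were called. Cox8b and Cox7a1, subunits of cytochrome c oxidase that heart muscle also expresses, made up most of that list's level at 6305 to 7650 and 5055 to 5717 TPM. Prdm16, a brown fat transcription factor gene, had 196 and 174 counts in WT and 132, 105 and 98 in db/db (log2 fold change -0.63, edgeR adjusted p = 0.169). Of 12 tested progenitor genes 2 rose, also by DESeq2 and limma-voom. Of all 12540 genes, 84 rose by edgeR, 165 by DESeq2 and 74 by limma-voom. Cebpb, an early factor of fat cell formation that many cells induce, rose by 1.69 (SE 0.15, edgeR adjusted p = 0.000572), from 288 and 263 counts to 904, 1010 and 613. Cebpd, of the same family, rose by 1.16 (adjusted p = 0.0260), a call lost without the WT female (0.278) or db/db female 1 (0.116), with the title number as a block (0.0556), and by limma on log2(TPM + 1) (0.0665) and log2(TPM + 0.1) (0.0809). Neither gene is specific to fat cells.

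**Figure D4:**
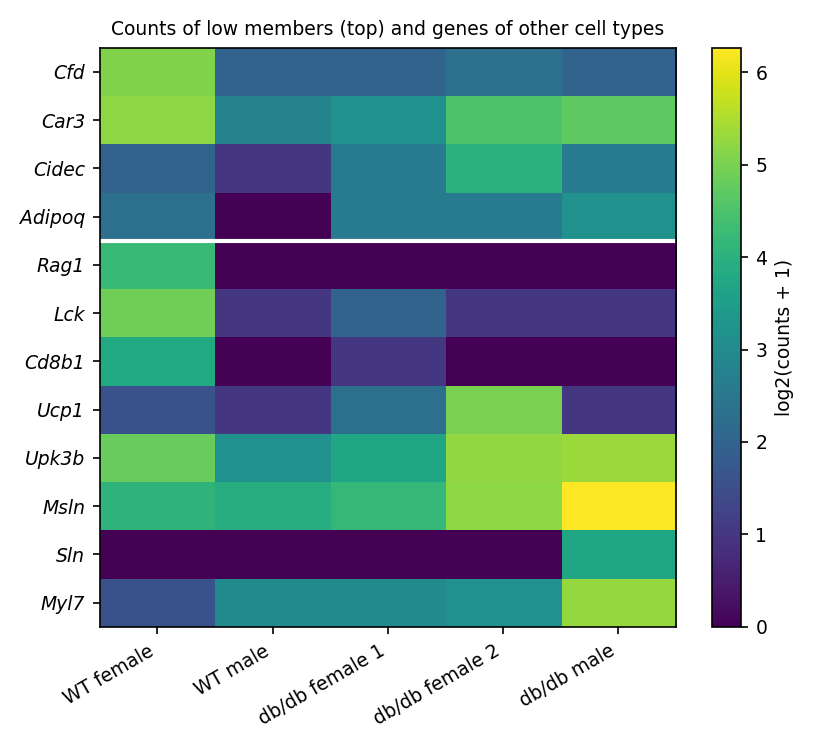
Counts per library as log2(counts + 1) (colour) of 4 low marker genes, above the white line, and of genes of the thymus (Rag1, Lck, Cd8b1), brown fat (Ucp1), mesothelium (Upk3b, Msln) and atrium (Sln, Myl7). Cfd is highest in the library with the thymus genes, and Cidec in the library with most Ucp1 (31 counts). Adipoq is highest in the library with most Msln (76 counts) and Sln (12 counts). Other listed genes, not drawn, did not all follow: Elovl3 of brown fat had 0 counts in db/db female 2, and Wt1 of mesothelium was lowest in the db/db male.

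Markers of tissues around the heart differed between single libraries. Msln, a mesothelial surface gene, had 16 and 14 counts in WT and 17, 36 and 76 in db/db, and so was highest in the db/db male, as Adipoq was. Other genes of its list were mixed. Wt1 had 54 and 56 counts in WT and 87, 102 and 33 in db/db, whereas Upk3b, at 39 counts, was highest in the db/db male and Wt1 lowest in that library. The atrial gene Sln had 12 counts in that library and 0 in each other one, and the atrial light chain gene Myl7 had 38 against 2 to 8. The summed level of the 10 atrial markers did not follow these 2. It was 909.6 and 944.35 TPM in WT and 592.66, 471.15 and 573.38 TPM in db/db, lower in the db/db male than in both WT libraries. Such a sum weighs most the gene of highest level, here Nppa, and does not speak for each marker. By number, 8 of the 10 had more than 3 counts in the db/db male, against 6 or 7 in the other libraries. The summed level of 12 epicardial and mesothelial markers was 27.87 and 18.9 TPM in WT and 21.37, 25.59 and 23.9 TPM in db/db, and 0 of 7 tested were called. The 10 ventricular markers summed to 113440 to 123626 TPM, and the markers of heart muscle were thus present in all 5 libraries. Of the tested genes, 0 of 9 skeletal muscle, 0 of 6 atrial, 0 of 10 ventricular, 0 of 6 red blood cell and 0 of 5 Schwann cell markers were called by edgeR, with 1, 1, 2, 0 and 1 at an unadjusted p under 0.05. By DESeq2, 1 ventricular marker was called and none of the others, and limma-voom called none in these lists. With sex as a covariate edgeR called 5 ventricular and 1 atrial marker and none of the others, where 6.63% of all genes were called. Without that covariate, 0.67% of all genes rose by edgeR. Of 10 macrophage markers 1 rose: Lyve1, of resident macrophages and lymphatic vessels, by 1.05 (edgeR adjusted p = 0.0127), a call lost without db/db female 1 (0.0817), the WT female (0.120) or the WT male (0.111), with library totals (0.0693), and by limma on both TPM scales (0.175 and 0.197). The part of these tissues in the values of the fat cell genes was not tested.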

How the data were processed

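RNA from 5 heart samples was read from 1 table. The authors deposited estimated counts (expected counts), FPKM and TPM per library, per the file headers; the authors' own p-values, q-values and log2 fold changes stand beside them. The submitters' processing notes name HISAT, Bowtie2, DESeq2 and GRCm38.p6 without versions or roles; the counting program and use of strand are not given in the sources used here. Of the deposited counts, 91.4% were whole as printed. They were rounded, filtered (filterByExpr, by genotype), scaled with TMM and tested by edgeR 4.0.16 under R 4.3.3 (robust quasi-likelihood, Benjamini-Hochberg over 12540 genes, called under 0.05). Symbols turned into dates (23) were restored through the gene ID; 17120 genes had that ID in RefSeq. Deposited FPKM served only to derive gene length. PCR reads without molecular identifiers are not independent molecules, so the exact 95% intervals cover counting error only.

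The 7 genes and all lists were chosen with earlier results of these data known. Named beside the 7 were up to 2 genes per list with the smallest p and 2 with the highest TPM, 6 fixed genes, and the 8 and 5 genes most like Adipoq and Car3. Rag1, Cd8b1, Sln, Myl7, Lgals12, Adrb3, Slc7a10, Acvr1c, Rbp4, Pck1, Mrap, Thrsp, Trarg1, Adig, Otop1, Zic1, Dio2 and Elovl3 were named after their values were seen. Alternatives were DESeq2 1.42.0, limma-voom (limma 3.58.1), RLE scaling, library totals, other filters, sex or title number as a covariate, females alone, a loess length offset (span 0.3), limma on log2(TPM + 1) and log2(TPM + 0.1), and leaving out each library. Where 1 WT library remained, its spread was taken to be that of the db/db libraries. The length offset with sex was added after seeing the data. Models were tested on simulated data.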

Additional observations from a re-analysis of the deposited data

Results flagged for a closer look

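Car3 stood out for moving one way from WT in females and the other way in males. It was lower in both db/db females than in the WT female, by a mean difference of -2.02 CPM, and higher in the db/db male than in the WT male by 2.72 CPM. The WT female was its highest library, with 36 counts against 6 in the WT male. The difference between the sexes was not tested.

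The CPM values of Cfd, the adipsin gene, also differed in sign between the sexes, but the males were level. Both db/db females were lower than the WT female, by a mean difference of -2.86 CPM, on 3 and 4 counts against 33. Both males had 3 counts. Their difference of 0.0780 CPM lies under the level that a count of 0 allows, and it turns in TPM, at 0.51 in the db/db male and 0.52 in the WT male. This difference between the sexes was not tested either.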

How the results depend on the processing

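The number of genes called in db/db against WT, 129, was 241 with DESeq2, 256 with no filter on low counts, 832 with sex as a covariate, 984 in females only, 0 with limma on log2(TPM + 1) and no filter, 440 with the length offset and sex (chosen after seeing the data), and 25 to 240 when each library was left out in turn (leaving out the WT female gave 25, db/db female 1 gave 43, the WT male 68 and the db/db male 240). Of the 7 genes, 0 were called, except 1 with sex as a covariate, 2 in females only and 1 with the length offset and sex. The median log2 fold change of the tested members, 0.30, ran from -0.040 to 1.64 when each library was left out; the 1.64, without the WT female, rested on 3 genes. For male against female, 176 genes became 307 with DESeq2, 40 with library totals, 419 with no filter, 30 with the length offset, 7 and 6 with limma on log2(TPM + 1) and log2(TPM + 0.1), 2 with log2(TPM + 1) and no filter, and 30 to 860 with each library left out (leaving out db/db female 2 gave 30, db/db female 1 gave 86, the WT male 831 and the WT female 860); 0 of the 7 genes became 1 with DESeq2, 1 with no filter and 0 to 1 with each library left out.

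Cidea was positive in 19 of 19 alternatives for genotype (0.33 to 0.86, called in 3) and in 15 of 15 for sex (0.24 to 0.57, called in 4). The fits for sex that left out a WT library compared the db/db libraries alone. Library totals moved the median of all genes to -0.19, and the TPM scales to -0.24 and -0.28. Car3, at -0.03, reversed to 0.015 with DESeq2, to 0.13 with limma-voom and to 0.027 with the replicate block, was -1.22 in females only (edgeR adjusted p = 0.149), and ran from -0.76 to 1.64 with each library left out; for sex it ran from -2.40 to 1.17. The cause was not tested. With limma on log2(TPM + 1) and no filter, Gpd1, Lipe, Cebpb, Cebpd and Lyve1 all lost their calls (adjusted p = 0.196, 0.312, 0.115, 0.243 and 0.330).

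Whether the number in the sample title pairs samples is not known. Deviations of same-numbered libraries from their genotype mean correlated at 0.10, -0.18 and -0.13. The deviations of 2 WT libraries mirror each other, so these values cannot decide it. With this replicate block 80 genes were called, and 0 of the 2 marker genes tested. Depth limits 5 of the 7 genes, which had 3 to 46 counts over all libraries.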
